A study of Mus musculus with 12 samples.

Results

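Mouse macrophages cultured on uncoated dishes with an antibody that neutralizes ITGA5, the α5 chain of the fibronectin receptor, were compared with macrophages given IgG on the same kind of dish. The comparison used 6 of the 12 RNA-seq libraries of the series, 3 with IgG and 3 with anti-ITGA5 antibody. Its members were all genes with at least 10 counts in 3 or more of the 6 libraries, 13015 of the 54532 genes in the count table. The other 6 libraries, in which both antibodies were given on fibronectin-coated dishes, served only to test whether the effect of the antibody differed by coating.

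All macrophages were grown from bone marrow of wild-type C57BL/6J mice aged 2 to 3 months with the growth factor CSF-1, given at 120 ng/ml for 48 h, and were passaged once. At confluence the IgG group received isotype-matched IgG at 10 µg/ml for 24 h, and the anti-ITGA5 group received the neutralizing antibody at the same dose and time. No allele was deleted in either group. An antibody acts on the protein at the cell surface, so Itga5 mRNA does not check whether the block worked. The study's text describes the replicates as biologically independent experiments. The labels do not say whether the 3 libraries of a group came from separate mice or cultures.

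Integrins are receptors made of an α and a β chain that bind matrix outside the cell and link it to the actin cytoskeleton through focal adhesion proteins such as talin, paxillin and the kinase FAK. ITGA5 pairs with ITGB1 and binds the RGD motif of fibronectin, a matrix protein found in serum and laid down by many cells, so a dish without added fibronectin is not free of it in culture with serum. In macrophages, integrin signalling is known to feed into spreading, migration, survival, growth factor responses and secretion.

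The 6 libraries held between 12954342 and 20269249 counts. The smallest was anti-ITGA5 replicate 2, and this library also stood apart in composition: long noncoding, antisense and provisional transcripts took 1.57% of its counts against 0.859% to 0.90% in the other 5. Quartiles of gene length were cut over all tested genes. Against the other 2 anti-ITGA5 libraries, replicate 2 was also lower in the coding genes of the shortest quartile (median log2 difference -0.14, over 2156 genes). It was higher in those of the longest (0.10, over 3191 genes). The first principal component of log2 expression held 44.2% of the variance and set the groups apart. Every IgG library lay on its negative side (-21.4 to -16.8) and every anti-ITGA5 library on its positive side. Anti-ITGA5 replicate 2 lay farthest out, at 40.5, against 12.4 or less in the other anti-ITGA5 libraries. Anti-ITGA5 replicate 3 differed in another class, with 0.352% of its counts in miRNA and snoRNA genes against at most 0.0900% in the other 5. Results that rested on anti-ITGA5 replicate 2 are given with and without it, and its part in them was otherwise not tested. Markers of macrophages were all detected, with a summed level of 9264 to 10101 FPKM (fragments per kilobase of transcript, scaled to the mapped total of the library, a level that can be compared between genes) in the IgG libraries and 6343 to 7738 FPKM in the anti-ITGA5 libraries, a sum and a difference mostly from Lyz2. Markers of dendritic cells, fibroblasts, erythroid cells and mast cells summed to at most 0.850 FPKM in any library, and those of lymphocytes to at most 4.58 FPKM. The lymphocyte sum came mostly from Cd79b, at a mean of 3.54 FPKM with IgG and 2.33 FPKM upon neutralization. Cd79b was not called (adjusted p = 0.0628 in edgeR's test). Without anti-ITGA5 replicate 2 it was called lower (log2 difference -0.67, adjusted p = 0.0252). Endothelial markers summed to 8.07 to 9.41 FPKM, mostly from Vwf, and progenitor and monocyte markers to 78.6 to 90.9 FPKM, mostly from Cd48, and no tested gene of either list was called, although Vwf was called lower (log2 difference -0.14, adjusted p = 0.0355) without anti-ITGA5 replicate 2. Neutrophil and granule markers summed to 21.5 to 27.2 FPKM with IgG and 13.4 to 15.8 FPKM upon neutralization, mostly from Mmp8. Ly6g, Retnlg and Cxcr2, which define neutrophils, had no count in any library, and Mpo and Elane had at most 14 and 10 counts. In bulk libraries, fewer cells of a type and less RNA per cell cannot be told apart.

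Upon ITGA5 neutralization, 1251 of the 13015 genes were lower (9.61%) and 1412 were higher (10.8%) in edgeR's quasi-likelihood test at an adjusted p of 0.05 or less, so that 20.5% of the tested genes were called. Most changes were small. The median size on the log2 scale was 0.33 among the lower genes and 0.39 among the higher genes, and 79 lower and 167 higher genes changed by 1 or more. Without anti-ITGA5 replicate 2, 14.4% of genes were lower and 15.3% higher, and 1222 of the 1251 lower genes and 1360 of the 1412 higher genes were called there too. On the scale of library-scaled counts, in 1245 lower and 1404 higher genes the groups did not overlap. Over all tested genes, every anti-ITGA5 library was below every IgG library for 18.8% and above every IgG library for 19.5%. When libraries were scaled by their total counts instead of by TMM (trimmed mean of M-values), the share of higher genes among those called was 66.1% in place of 53%, and the median of all genes moved from 0.01 to 0.05. Of the called genes, 203 lower and 204 higher ones belonged to 1 or more lists of genes with a shared function. The lists were chosen with earlier results of these data known, and they are described by counts and medians, beside the median of 0.01 and the called shares over all genes.

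**Figure D1:**
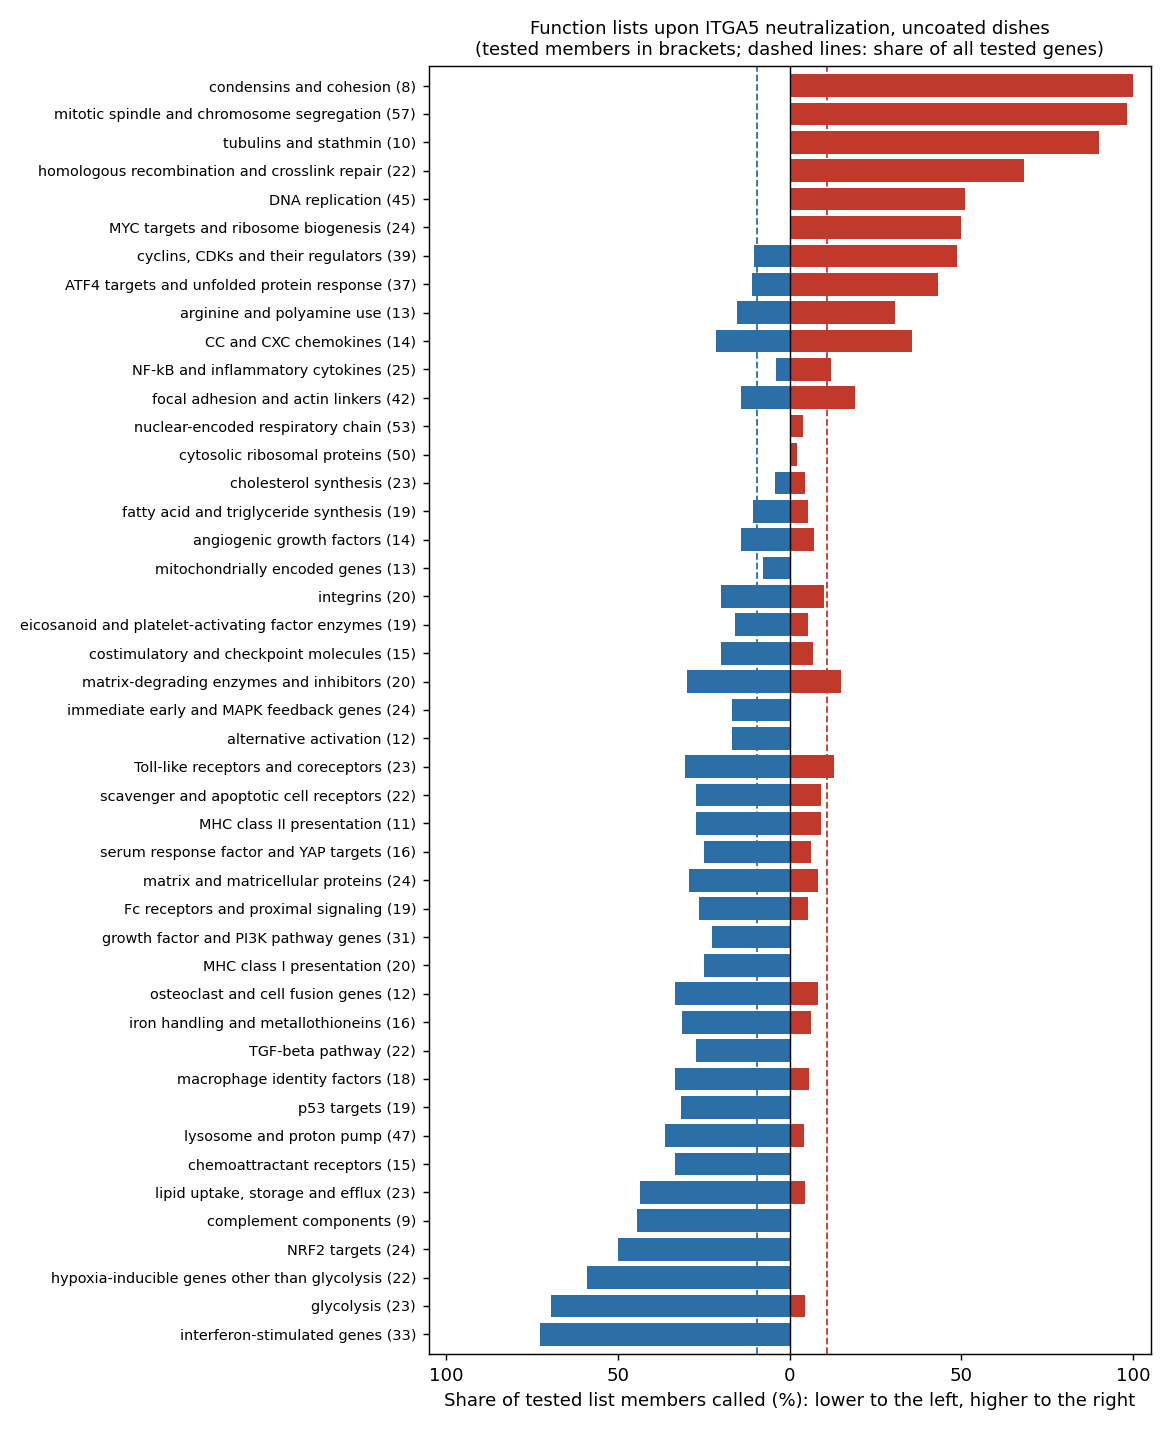
Share of the tested members of each function list called lower (left, blue) or higher (right, red) upon ITGA5 neutralization on uncoated dishes, with the number of tested members in brackets and dashed lines at the shares over all 13015 genes, 9.61% and 10.8%. Lists of cell division genes sit at the top, where 56 of 57 spindle and segregation genes were higher, and interferon-stimulated genes, 24 of 33 lower, at the bottom.

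Neither chain of the blocked receptor was called. Itga5 (chromosome 15, 103344286 to 103366763, minus strand, GRCm38.p6) stood at 44.8, 44.5 and 49.1 FPKM in the 3 IgG libraries and at 53.1, 50.4 and 49.4 FPKM in the 3 anti-ITGA5 libraries. All 3 anti-ITGA5 libraries were above the IgG libraries, narrowly for the last. The log2 difference was 0.15 (SE 0.0570) and was not called (adjusted p = 0.0904); without anti-ITGA5 replicate 2 it was 0.15 (adjusted p = 0.0346). Itgb1, the partner chain, was at 278, 282 and 264 FPKM with IgG and 273, 256 and 270 FPKM upon neutralization, and the groups overlapped (log2 difference -0.04, adjusted p = 0.668). Its sign turned, to 0.004, under scaling by total counts. Of the 20 integrin genes tested, 4 were lower and 2 higher, with a median of -0.19 (7 lower and 3 higher without anti-ITGA5 replicate 2, and 2 lower without IgG replicate 1). Itgam, the α chain of the complement receptor Mac-1, fell from 58.7 ± 2.50 to 42.2 ± 3.39 FPKM (mean ± SD, n = 3 per group, as for every such pair; log2 change -0.47). Itgax, the CD11c chain, rose from a low 0.978 ± 0.213 to 1.89 ± 0.536 FPKM (not called without IgG replicate 1 or 3), and Itgb7, which pairs with the α4 and αE chains, from 10.9 ± 1.15 to 15.0 ± 1.495 FPKM.

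Genes of mitosis rose almost without exception. Of 57 tested members of the mitotic spindle and chromosome segregation list, 56 were higher and none was lower, with a median log2 change of 1.33. As many, 56 of 57, were higher without anti-ITGA5 replicate 2 (median 1.27), and 55 or 56 were higher when any other single library was left out. In dividing cells such genes are switched on late in the cell cycle, in G2 and mitosis. Many of their promoters are known to carry a cell cycle homology region with the letters TTTGAA and CCAAT boxes, bound by the DREAM and MuvB complexes, B-MYB, FOXM1 and NF-Y. The promoters of 3 mitotic genes and 1 condensin gene are printed because these genes rose together and carry such letters close to the start site. Each line gives the 150 bases before the annotated start, 5′ to 3′ on the gene's strand, from RefSeq's models on GRCm38.p6, and capitals mark TTTGAA or CCAAT in either orientation (TTCAAA and ATTGG on the other strand). Cdc20 lies at chr4:118437344-118437493 (minus strand), Ube2c at chr2:164769779-164769928 (plus), Kif11 at chr19:37376232-37376381 (plus) and Ncapg at chr5:45669775-45669924 (plus).
Cdc20: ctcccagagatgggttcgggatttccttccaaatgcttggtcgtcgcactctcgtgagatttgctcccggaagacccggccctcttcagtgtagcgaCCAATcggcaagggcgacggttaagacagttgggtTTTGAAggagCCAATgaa
Ube2c: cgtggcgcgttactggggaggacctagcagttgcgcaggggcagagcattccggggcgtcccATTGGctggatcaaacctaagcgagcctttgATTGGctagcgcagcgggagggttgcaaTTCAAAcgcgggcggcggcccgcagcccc
Kif11: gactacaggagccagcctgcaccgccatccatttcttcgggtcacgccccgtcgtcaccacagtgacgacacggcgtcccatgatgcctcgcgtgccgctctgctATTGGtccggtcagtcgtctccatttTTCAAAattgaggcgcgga
Ncapg: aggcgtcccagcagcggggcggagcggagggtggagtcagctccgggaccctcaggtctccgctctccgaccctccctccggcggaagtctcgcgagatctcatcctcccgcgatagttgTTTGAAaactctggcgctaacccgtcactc
These 4 were chosen for having TTTGAA matches. In the 250 bases before the start, TTTGAA or its reverse complement was present in 16 of 54 promoters of the mitotic list (29.6%; 49 of its 57 genes had a promoter sequence), in 5 of 8 promoters of the condensin list (62.5%) and in 6 of 44 promoters of the DNA replication list (13.6%), against 16.0% of all 32851 promoters. CCAAT or its reverse complement was present in 66.7%, 37.5% and 52.3% of the same promoters, against 33.8% of all. A match is a run of letters and not a measured binding site.

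Mitotic kinases led by level. Plk1, the Polo-like kinase that drives entry into and exit from mitosis, was at 6.32, 8.59 and 6.23 FPKM in the IgG libraries and at 32.9, 32.1 and 30.5 FPKM upon neutralization. Every anti-ITGA5 library was more than 3 times the highest IgG library. The log2 change was 2.18 (SE 0.107, adjusted p = 2.16e-06). All 9 kinases and kinase activators of the list rose, from 1.03 to 2.18, among them Aurka, which builds the spindle poles (7.55 ± 0.959 to 22.4 ± 1.66 FPKM), and Aurkb, which corrects faulty attachments (11.04 ± 1.69 to 24.3 ± 1.30 FPKM). Nek2, a kinase of centrosome separation, rose from 3.56 ± 0.281 to 11.3 ± 0.963 FPKM.

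Genes that end mitosis rose too. Cdc20, the activator of the anaphase-promoting complex, was at 6.63, 6.96 and 6.87 FPKM with IgG and 29.5, 28.5 and 28.3 FPKM upon neutralization, with a spread inside each group far below the gap between the groups. Its log2 change of 2.08 (SE 0.0648) had the smallest adjusted p of all tested genes (9.86e-08). Ube2c, the ubiquitin-conjugating enzyme of that complex, went from 5.81 ± 0.680 to 25.8 ± 2.00 FPKM, and Prc1, which bundles the midzone microtubules in cytokinesis, from 4.21 ± 0.669 to 16.0 ± 1.17 FPKM. All 19 kinesins and spindle proteins rose, by 1.05 to 1.93, including Kif11, the motor that pushes spindle poles apart (12.0 ± 2.42 to 31.8 ± 2.88 FPKM). All 15 kinetochore genes rose, by 0.42 to 1.90, with Cenpf at the top (2.29 ± 0.518 to 8.52 ± 1.65 FPKM). The 1 exception among the 57 was Pttg1, which encodes securin, the inhibitor of separase. It was at 5.53, 5.96 and 6.16 FPKM with IgG and 5.70, 5.26 and 6.24 FPKM upon neutralization, the groups overlapped (log2 difference -0.03, adjusted p = 0.885), and its sign turned with the scaling. Kif11, Cenpf and Pttg1 were named after their values were seen.

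Proteins that pack and hold chromosomes followed. All 8 tested condensin and cohesion genes rose (median 0.75), among them Ncapg (3.75 ± 0.573 to 8.87 ± 0.553 FPKM) and Smc4 (29.7 ± 2.83 to 52.5 ± 3.66 FPKM), subunits of the condensin ring. Microtubule subunits, which the spindle and the resting cell both use, rose by less: 9 of 10 tubulin and stathmin genes were higher (median 0.37). Tuba1b was at 314, 323 and 312 FPKM with IgG and 448, 388 and 421 FPKM upon neutralization, without overlap. Stmn1, stathmin, which frees tubulin from microtubules and is abundant in dividing cells, went from 48.3 ± 5.32 to 88.4 ± 4.67 FPKM. The 3 tested Hmgb genes, for small chromatin proteins, all rose, with Hmgb2 going from 22.4 ± 2.50 to 44.6 ± 2.21 FPKM, a gene named after its values were seen.

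**Figure D2:**
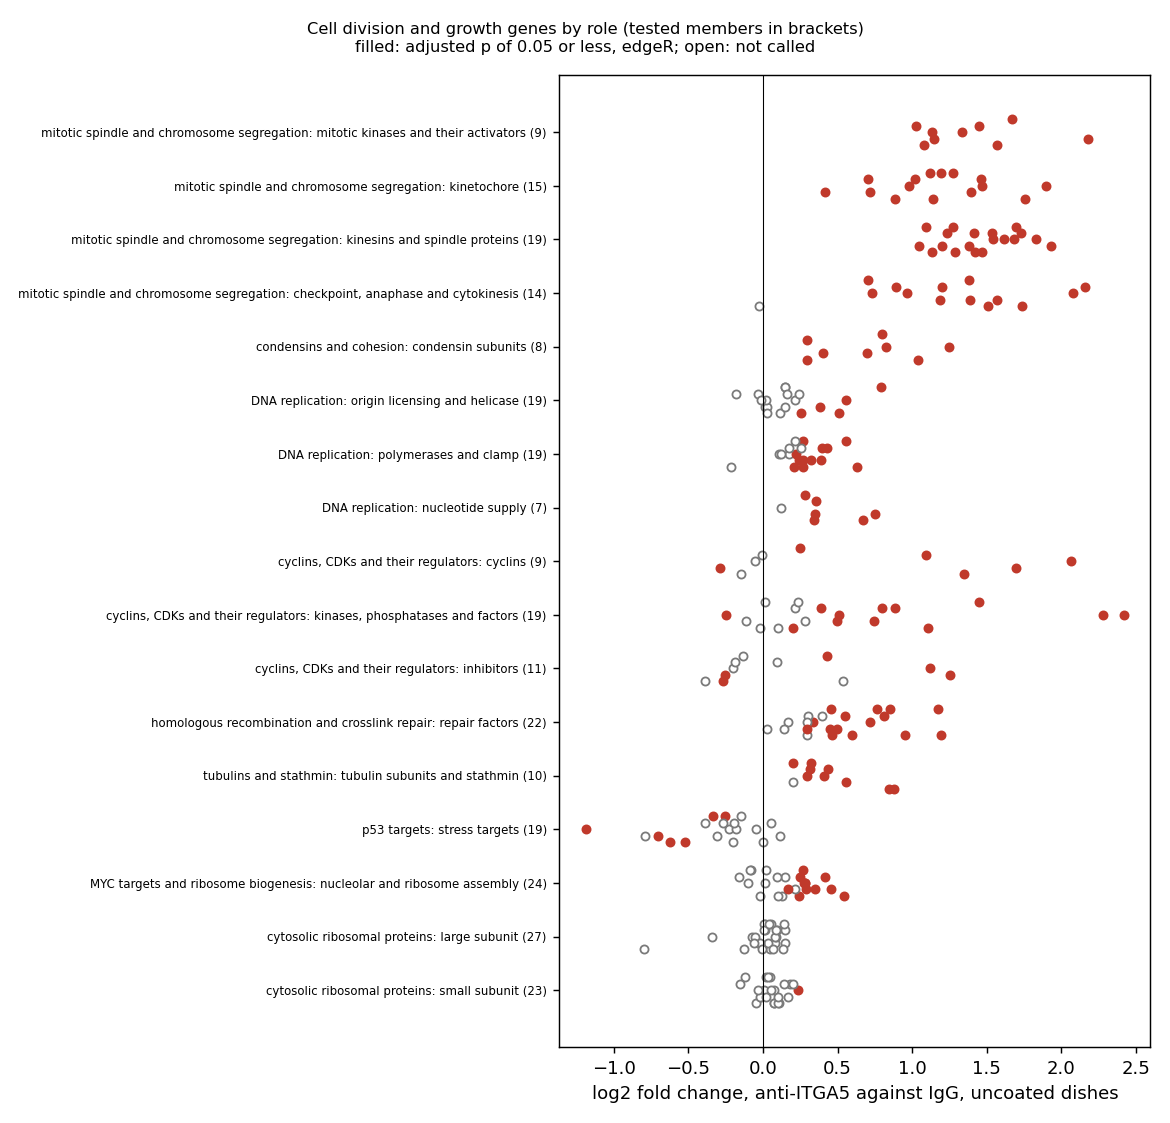
Log2 fold change of each tested gene upon ITGA5 neutralization on uncoated dishes, 1 point per gene, by function list and role; filled points passed edgeR's test at an adjusted p of 0.05 or less and open points did not. Mitotic roles lie between 0.42 and 2.18 except for Pttg1 at -0.03, while origin licensing and helicase genes have a median of 0.15 and ribosomal proteins of 0.04.

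Genes of DNA copying, which peak earlier in the cycle, in S phase, moved less. Of 45 tested DNA replication genes, 23 were higher and none lower (median 0.24); leaving out 1 library gave 12 (without IgG replicate 3) to 29 (without anti-ITGA5 replicate 2) higher ones. The 23 were spread unevenly over roles: 6 of 7 genes of nucleotide supply, 12 of 19 polymerase and clamp genes and 5 of 19 genes of origin licensing and the helicase. None of the 6 subunits of the replicative helicase, Mcm2 to Mcm7, was called. Mcm2 was at 26.2, 26.0 and 26.1 FPKM with IgG and 26.7, 25.6 and 26.9 FPKM upon neutralization, with overlapping groups (log2 difference 0.02, adjusted p = 0.754). Across the 6 subunits the difference was -0.03 to 0.15, and 2 of them were called higher without anti-ITGA5 replicate 2. Tk1, thymidine kinase, whose mRNA and protein are known to run through S phase into mitosis, rose from 14.3 ± 0.892 to 22.6 ± 0.408 FPKM, and Tyms, which makes thymidylate, from 4.92 ± 0.470 to 8.26 ± 0.170 FPKM. Dbf4, the activator of the CDC7 kinase that fires origins, rose from 4.08 ± 0.449 to 7.04 ± 0.141 FPKM. Genes of homologous recombination and crosslink repair, a pathway of cells with replicated DNA, had 15 of 22 higher and none lower (median 0.46). Brca2, a mediator of strand exchange in that pathway that was named after its values were seen, was at 1.54 ± 0.103 and 2.70 ± 0.361 FPKM.

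The cyclins split by phase. Cyclins of mitosis and G2 were all higher: Ccnb2 stood at 7.14, 10.7 and 6.07 FPKM with IgG and 34.7, 35.0 and 29.9 FPKM upon neutralization, where the lowest anti-ITGA5 library was well above the highest IgG library. Ccnb1 went from 8.28 ± 1.20 to 26.7 ± 0.550 FPKM and Ccna2 from 14.2 ± 1.81 to 35.9 ± 3.05 FPKM. Among the 5 cyclins of G1, of the D and E types, 1 was lower (Ccne1, log2 change -0.29) and 1 higher (Ccnd2, 0.25, adjusted p = 0.0357, not called with DESeq2 or without IgG replicate 2, IgG replicate 3 or anti-ITGA5 replicate 1). Cdk1, the kinase that mitotic cyclins bind, rose from 15.1 ± 2.13 to 27.7 ± 1.85 FPKM, and Cdc25c, the phosphatase that activates it, from 1.47 ± 0.216 to 7.14 ± 0.464 FPKM. The regulators of entry into the cycle moved differently from each other. None of the 3 CIP and KIP inhibitors was called (-0.20 to -0.13; 1 was called lower without anti-ITGA5 replicate 2), while the INK4 inhibitors Cdkn2c and Cdkn2d, which block CDK4 and CDK6, rose with the mitotic genes, as 2 of 3 tested, Cdkn2c from 15.6, 17.5 and 13.7 to 39.0, 37.1 and 34.8 FPKM and Cdkn2d from 14.3 ± 1.37 to 30.9 ± 0.922 FPKM. Of 5 tested E2f genes, only E2f3 was called, lower by 0.25. Ccna2, Ccnd2 and Cdk1 were named after their values were seen.

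Several of the largest rises were in genes named neither among the mitotic nor among the replication genes. Pif1 (chromosome 9, 65587160 to 65595967, plus strand), a 5′ to 3′ DNA helicase, was at 0.580, 0.889 and 0.780 FPKM with IgG and 6.79, 7.74 and 5.68 FPKM upon neutralization, a log2 change of 3.16 (SE 0.164, adjusted p = 2.22e-06), the largest rise once Gm and Rik names and genes with fewer than 10 counts in any of the 6 were left out. Cdkn3, a phosphatase of cyclin-dependent kinases in the cyclin list, Sapcd2, Ankle1, a nuclease, and Fam83d, a spindle protein, rose by 2.42, 2.20, 2.18 and 2.04. Among the 12 largest rises was also Spn, the sialophorin CD43 of leukocyte surfaces, which rose from 1.01 ± 0.206 to 3.84 ± 0.510 FPKM. The 12 largest falls by the same rule included Olfr920, an olfactory receptor gene (-2.18), and Slco4a1, an organic anion transporter (-1.78), and Mmp9 and Irf7, described with their lists. Of the genes with the largest changes, Cdc25c, Cdc20, Ube2c, Plk1 and Prc1 share bases with another annotated gene, and reads in such stretches may not be assigned to a single gene.

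**Figure D3:**
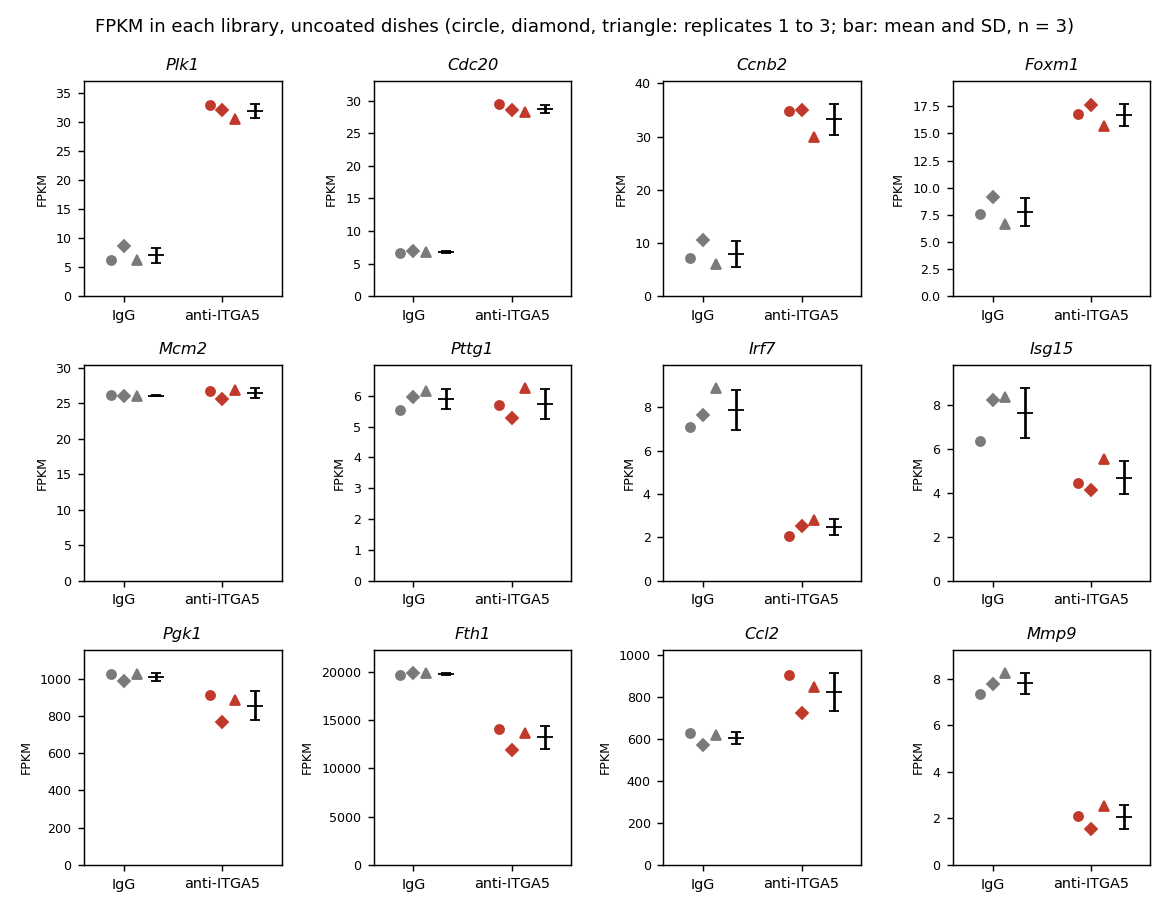
FPKM of 12 genes in each of the 6 libraries on uncoated dishes, IgG in grey and anti-ITGA5 in red, with symbols for replicates 1 to 3 and a bar for the mean and SD (n = 3 per group). Groups lie apart for Plk1, Cdc20, Ccnb2, Foxm1, Irf7, Isg15, Pgk1, Fth1, Ccl2 and Mmp9, and overlap for Mcm2 and Pttg1.

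The p53 protein restrains the cell cycle, and some of its direct targets fell. Of 19 tested, 6 were lower and none higher (median -0.25); without anti-ITGA5 replicate 2, 8 were lower and 1 higher. Trp53inp1, a stress protein of the p53 loop, was at 9.16, 10.6 and 8.52 FPKM with IgG and 3.88, 4.37 and 4.15 FPKM upon neutralization, less than the lowest IgG library in every case. Phlda3, an inhibitor of AKT, went from 27.0 ± 1.54 to 16.4 ± 1.86 FPKM, Sesn2, a sestrin that restrains mTORC1, from 13.2 ± 0.459 to 8.48 ± 0.661 FPKM, and Mdm2, the ubiquitin ligase of p53 itself, from 76.0 ± 0.614 to 52.7 ± 2.87 FPKM. The remaining 13 were not called. Genes of ribosome biogenesis, many of them MYC targets, had 12 of 24 higher and none lower (median 0.19); 17 were higher without anti-ITGA5 replicate 2 and 7 without IgG replicate 1. Ncl, nucleolin, rose from 53.7 ± 1.70 to 65.5 ± 3.01 FPKM and Bop1, a factor of large subunit assembly, from 15.0 ± 1.37 to 21.7 ± 1.85 FPKM. Of 50 cytosolic ribosomal protein genes, 1 was higher (Rps2, 443 ± 14.2 to 520 ± 57.9 FPKM, called only with all 6 libraries or without anti-ITGA5 replicate 2), and 28 were higher without anti-ITGA5 replicate 2: in that library the median of the list was 0.11 below the IgG mean, and in the other 2 anti-ITGA5 libraries 0.13 and 0.11 above it. The part of gene length in that difference was not tested.

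**Figure D4:**
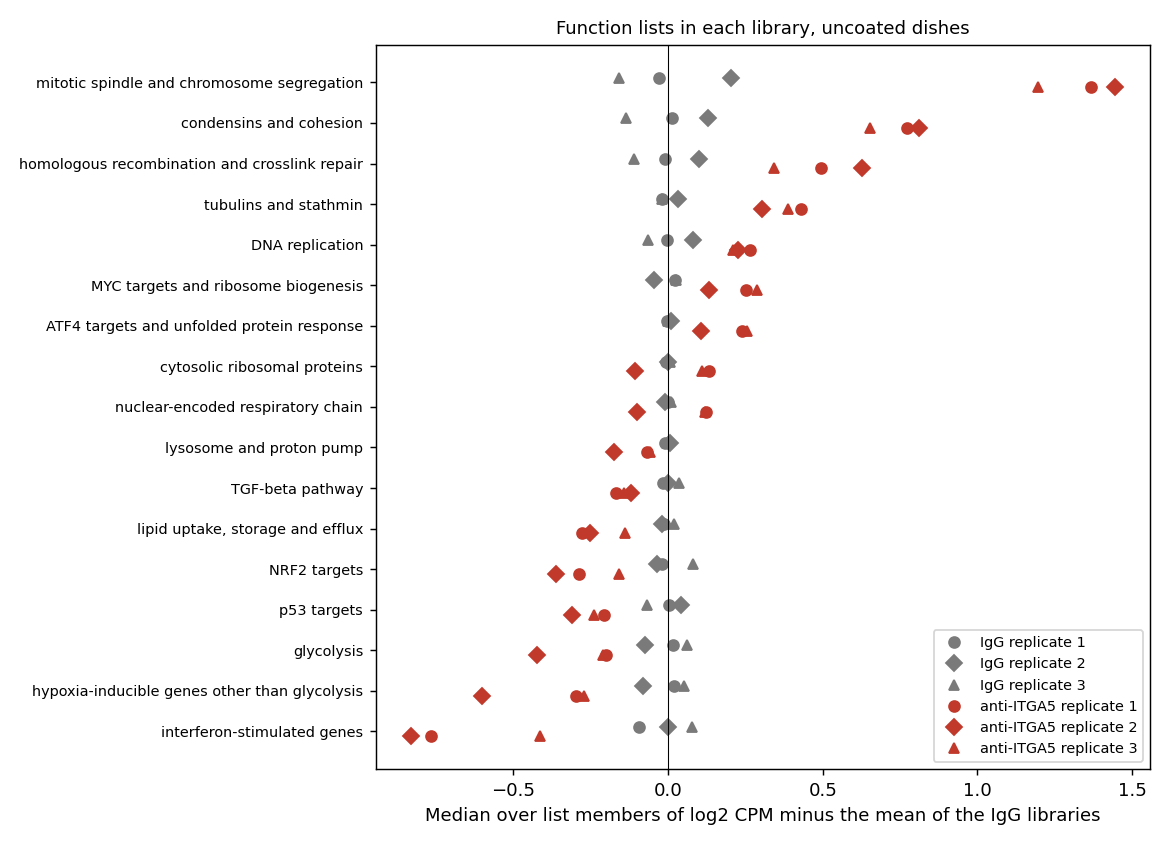
Median over the tested members of 17 function lists of the log2 library-scaled counts minus the mean of the 3 IgG libraries, in each of the 6 libraries. Mitotic genes lie at 1.20 to 1.45 in the anti-ITGA5 libraries and interferon-stimulated genes below every IgG library, while ribosomal proteins and the respiratory chain have anti-ITGA5 replicate 2 on the other side of 0 from replicates 1 and 3.

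Most glycolytic genes fell. Of 23 tested enzymes and transporters, 16 were lower and 1 was higher (median -0.30), and of the 17 classical enzymes of the pathway 13 were lower. Leaving out 1 library gave between 7 lower genes (without IgG replicate 1) and 19 (without anti-ITGA5 replicate 2). Hk2, hexokinase, the first step, was at 34.3, 29.7 and 36.2 FPKM with IgG and 23.5, 20.8 and 23.8 FPKM upon neutralization, without overlap (log2 change -0.55, adjusted p = 6.37e-04). Pfkl, the liver form of phosphofructokinase, went from 45.4 ± 3.61 to 34.3 ± 3.20 FPKM. Pfkp, the platelet form of the same enzyme, was the single higher gene (13.8 ± 0.547 to 16.4 ± 0.854 FPKM) and was named after its values were seen. In the lower part of the pathway, Eno1, enolase, went from 545 ± 34.6 to 419 ± 43.7 FPKM. Pgk1, phosphoglycerate kinase, was at 1024, 987 and 1025 FPKM with IgG and 912, 769 and 887 FPKM upon neutralization, with anti-ITGA5 replicate 2 the lowest, and it was not called without IgG replicate 1 or 3. Over the list, the median in that library was 0.42 below the IgG mean, against 0.20 and 0.21 below it in the other 2.

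Genes outside glycolysis that the hypoxia-inducible factors are known to switch on fell as well, 13 of 22 with none higher (median -0.37; 14 lower without anti-ITGA5 replicate 2). They included Egln3, the oxygen-sensing prolyl hydroxylase PHD3 (16.1, 13.3 and 16.5 FPKM with IgG and 9.04, 8.05 and 9.27 FPKM upon neutralization, without overlap), Bnip3 and Bnip3l, receptors that mark mitochondria for autophagy (37.7 ± 1.42 to 24.2 ± 2.93 and 29.6 ± 1.43 to 20.9 ± 2.72 FPKM), and Ak4, a mitochondrial adenylate kinase (11.4 ± 0.970 to 6.55 ± 1.061 FPKM). In the 250 bases before the start, the letters ACGTG or CACGT, the core of a hypoxia response element, were present in 15 of 36 glycolysis promoters (41.7%) and 13 of 26 promoters of the other hypoxia genes, against 16.6% of all promoters. The nuclear-encoded respiratory chain, by contrast, had 2 of 53 genes higher and none lower (median 0.07), Cycs and Ndufs1, and 23 higher without anti-ITGA5 replicate 2. Of the 13 mitochondrially encoded genes, mt-Co2 alone was called, lower by 0.27 (adjusted p = 0.0346), and it was not called with DESeq2 or in 5 of the 6 fits that left out a library.

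Antioxidant genes that the factor NRF2 controls were lower in 12 of 24 cases and higher in none (median -0.25; 12 lower and 1 higher without anti-ITGA5 replicate 2). Prdx6, a peroxiredoxin, was at 41.97, 41.4 and 48.2 FPKM with IgG and 25.9, 22.6 and 26.1 FPKM upon neutralization, all 3 below the IgG libraries. Gstm1, a glutathione transferase, went from 96.7 ± 3.95 to 62.2 ± 2.46 FPKM, Cat, catalase, from 178 ± 3.91 to 123 ± 7.73 FPKM and Prdx1 from 614 ± 35.4 to 432 ± 30.3 FPKM. Hmox1, heme oxygenase, which frees iron from heme, had 1 of the largest falls in level (1710 ± 270 to 1065 ± 199 FPKM). The letters TGACNNNGC, or GCNNNGTCA on the other strand, were found in 6 of 28 promoters of the list (21.4%) and in 10.2% of all.

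Both chains of ferritin, the iron store, fell. Fth1, the heavy chain and the gene with the largest drop in level, was at 19723, 19854 and 19917 FPKM with IgG and 14113, 11868 and 13660 FPKM upon neutralization, and Ftl1, the light chain, went from 6790 ± 261 to 4706 ± 303 FPKM. Ftl1 has near-identical copies in the genome, and its reads may be split among them. Slc11a1, the NRAMP1 transporter that moves iron out of phagosomes, fell from 114 ± 5.11 to 86.0 ± 6.54 FPKM, and Ireb2, an iron-regulatory protein that binds such mRNAs when iron is low, rose from 8.57 ± 0.450 to 10.5 ± 0.279 FPKM. The iron list as a whole had 5 of 16 lower and 1 higher (median -0.06).

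Amino acid supply moved the other way from glycolysis. Of 37 tested ATF4 targets and genes of the unfolded protein response, 16 were higher and 4 lower (median 0.18; 25 higher and 6 lower without anti-ITGA5 replicate 2). Atf4, the transcription factor of the amino acid response, was at 46.7, 44.5 and 50.7 FPKM with IgG and 87.5, 71.3 and 82.7 FPKM upon neutralization, without overlap. Its known target Slc7a5, a chain of the LAT1 carrier of large amino acids, was at 3.26, 3.54 and 3.48 FPKM with IgG and 12.1, 11.3 and 10.4 FPKM upon neutralization, a log2 change of 1.72 (SE 0.0816, adjusted p = 2.07e-06). Mthfd2, a mitochondrial enzyme of folate metabolism, went from 10.2 ± 1.11 to 21.1 ± 2.14 FPKM and Aldh18a1, the first enzyme of proline synthesis, from 5.23 ± 0.151 to 9.03 ± 0.855 FPKM.

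Of 5 tested enzymes of serine synthesis and folate one-carbon metabolism, 4 were higher, and Psph, the last step of serine synthesis, was not called (log2 difference 0.08). Phgdh, the first step, went from 2.61, 3.30 and 2.55 to 8.62, 6.51 and 6.06 FPKM, and Psat1, the second, from 15.0 ± 0.507 to 23.1 ± 1.85 FPKM. Asns, asparagine synthetase, and Trib3, a pseudokinase that restrains ATF4, rose by 0.78 and 0.70. Chac1, a glutathione-degrading ATF4 target, differed by 1.33 without being called (adjusted p = 0.0669), and Ddit4, which both ATF4 and the hypoxia factors switch on, fell from 2.27 ± 0.276 to 1.13 ± 0.0918 FPKM. Psph, Phgdh, Psat1, Asns, Trib3, Chac1 and Ddit4 were named after their values were seen. Of 17 chaperones of the endoplasmic reticulum, 6 were higher and 1 lower (11 and 3 without anti-ITGA5 replicate 2). The letters TGATGNAA, or TTNCATCA, were in 6 of 37 promoters of the ATF4 list (16.2%) and in 3.45% of all.

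Of 13 tested genes of arginine and polyamine use, 4 were higher and 2 lower (median 0.11; 1 lower without IgG replicate 1, IgG replicate 2 or anti-ITGA5 replicate 1). Slc7a1, the main arginine carrier, rose from 5.54 ± 0.365 to 9.07 ± 0.556 FPKM, and Odc1, ornithine decarboxylase, the rate-limiting step of polyamine synthesis, from 42.2 ± 2.27 to 55.9 ± 1.63 FPKM. Azin1, which protects that enzyme from degradation, rose from 47.2 ± 2.91 to 62.4 ± 2.53 FPKM. Sat1, which acetylates polyamines for export and breakdown, fell from 79.3 ± 7.09 to 65.1 ± 5.96 FPKM (not called without IgG replicate 1, IgG replicate 2 or anti-ITGA5 replicate 1) and was named after its values were seen. Of 12 tested genes of alternative activation, 2 were lower and none higher (median 0.03, whose sign turned in thinned counts; 1 lower without IgG replicate 1, and 2 lower and 2 higher without anti-ITGA5 replicate 2). Il4ra, the IL-4 receptor chain, fell from 21.7 ± 2.28 to 17.0 ± 1.96 FPKM (not called without IgG replicate 1 or 3).

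Genes of lipid uptake, storage and efflux were lower in 10 of 23 cases and higher in 1 (median -0.24; the same counts without anti-ITGA5 replicate 2, and 6 lower without IgG replicate 3). Apoe, the apolipoprotein that carries cholesterol out of macrophages, was at 708, 657 and 714 FPKM with IgG and 448, 359 and 478 FPKM upon neutralization. Abca1, the pump that loads cholesterol onto such particles, went from 6.52 ± 1.48 to 4.15 ± 0.90 FPKM (named after its values were seen, and not called with DESeq2 or without IgG replicate 1, IgG replicate 3 or anti-ITGA5 replicate 1). Lipa and Npc2, which free cholesterol in the lysosome and hand it on, went from 672 ± 15.7 to 516 ± 24.6 and from 212 ± 1.04 to 153 ± 15.1 FPKM. Among genes of synthesis, cholesterol synthesis had 1 of 23 lower and 1 higher (median -0.11, and -5.9e-04 without IgG replicate 2). Fatty acid and triglyceride synthesis had 2 of 19 lower and 1 higher (median -0.06). Without anti-ITGA5 replicate 2 these counts were 7 and 1, and 6 and 3. Scd2, a desaturase, fell from 15.4 ± 1.72 to 9.91 ± 2.35 FPKM (not called without IgG replicate 2), and Mvk, mevalonate kinase, rose from 4.90 ± 0.424 to 7.20 ± 0.365 FPKM.

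Lysosomal genes were lower in 17 of 47 cases and higher in 2 (median -0.11). The lower genes included 5 of 10 cathepsins, the lysosomal proteases. Ctsh went from 22.2 ± 2.66 to 15.0 ± 1.061 FPKM, and the very abundant Ctsd was at 2677, 2636 and 2808 FPKM with IgG and 2263, 1974 and 2317 FPKM upon neutralization, without overlap. Ctss, the protease that trims the class II invariant chain, went from 945 ± 16.2 to 675 ± 74.0 FPKM, and Psap, the precursor of the saposins that help to break down sphingolipids, from 3019 ± 91.5 to 2329 ± 169 FPKM. Subunits of the proton pump were mostly not called, with 2 of 11 lower and 1 higher. Lyz2, lysozyme, which macrophages and neutrophils both make, fell from 7514 ± 430 to 5256 ± 631 FPKM.

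Interferon-stimulated genes formed the other large block. Of 33 tested, 24 were lower and none higher (median -0.74); without anti-ITGA5 replicate 2 they were 25 lower and 1 higher, and leaving out any 1 library gave 17 to 27 lower ones. These genes answer type I interferon through the factor ISGF3, which contains IRF9, and are known for a response element with the letters GAAA, then 2 bases of any kind (N), then GAAA in their promoters. The promoters of 3 of them show it, printed as above with the match in capitals (TTTC, 2 bases, TTTC on the other strand): Oas3 at chr5:120777660-120777809 (minus strand), Isg15 at chr4:156200819-156200968 (minus) and Ifit3 at chr19:34583379-34583528 (plus), all RefSeq on GRCm38.p6.
Oas3: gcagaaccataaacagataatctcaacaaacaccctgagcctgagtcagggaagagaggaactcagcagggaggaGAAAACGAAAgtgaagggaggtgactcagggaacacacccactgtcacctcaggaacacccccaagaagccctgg
Isg15: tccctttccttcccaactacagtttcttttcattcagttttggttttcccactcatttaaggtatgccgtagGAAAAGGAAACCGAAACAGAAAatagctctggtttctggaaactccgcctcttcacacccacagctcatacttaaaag
Ifit3: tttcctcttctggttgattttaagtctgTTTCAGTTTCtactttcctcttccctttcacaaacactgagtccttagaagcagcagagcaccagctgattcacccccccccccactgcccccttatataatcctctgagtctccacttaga
Matches overlap in Isg15, and the 3 genes were chosen for having a match. In the 250 bases before the start, 11 of 28 promoters of the list (39.3%; 23 of its 33 genes had a promoter sequence) held these letters, against 2.98% of all.

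Irf7, the factor that amplifies interferon production, was at 7.11, 7.67 and 8.88 FPKM with IgG and 2.05, 2.54 and 2.80 FPKM upon neutralization, with every anti-ITGA5 library far under the IgG libraries (log2 change -1.67, SE 0.125, adjusted p = 1.58e-05). Genes of the 2′-5′-oligoadenylate synthetase family, which sense double-stranded RNA, were lower in 4 of 5 cases. Oas3 was at 14.6, 15.7 and 16.5 FPKM with IgG and 6.11, 5.61 and 7.16 FPKM upon neutralization, and Oasl2 went from 7.003 ± 1.08 to 2.59 ± 0.577 FPKM. Usp18, which removes ISG15 from proteins and damps the receptor, fell by 1.43 on the log2 scale, Zbp1, a sensor of Z-form nucleic acid, by 1.52, and Rtp4 by 1.51. The abundant Ifitm3, which blocks virus entry at membranes, was at 619, 616 and 615 FPKM with IgG and 299, 276 and 317 FPKM upon neutralization, and Ly6a went from 4.48 ± 0.539 to 1.09 ± 0.279 FPKM. Ifit3 went from 2.47 ± 0.793 to 0.964 ± 0.272 FPKM, Isg15 from 7.65 ± 1.13 to 4.71 ± 0.742 FPKM, Mx1 from 2.94 ± 0.553 to 1.11 ± 0.179 FPKM and Irf9 from 9.96 ± 1.47 to 6.46 ± 0.675 FPKM, and these 4 were named after their values were seen. Without IgG replicate 2 or 3, Ifit3 and Isg15 were not called, and Isg15 was not called without anti-ITGA5 replicate 1 either. Irf7 and Rtp4 each share bases with another annotated gene.

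Antigen presentation by class I molecules, which interferons also raise, had 5 of 20 genes lower and none higher (median -0.12; 2 lower without IgG replicate 3), among them H2-K1 (246 ± 11.6 to 196 ± 19.8 FPKM, not called without IgG replicate 3) and its light chain B2m (1158 ± 25.4 to 928 ± 89.3 FPKM). The class I genes share long near-identical stretches, so reads may be split among them. In class II presentation 3 of 11 were lower and 1 higher (1 lower with DESeq2, and 1 lower and none higher without IgG replicate 1), and the class II genes were low in these cells, with a median of 2.34 FPKM with IgG. H2-DMb1 was called lower by 0.25 with an adjusted p of 0.0492 and lost its call with DESeq2 and without any 1 of the 6 libraries.

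Chemokines split by gene. Of 14 tested, 5 were higher and 3 lower (median 0.04, whose sign turned without anti-ITGA5 replicate 1; 1 lower without IgG replicate 1). The higher ones, Ccl2, Ccl3, Ccl4, Ccl7 and Ccl12, are CC chemokines known to attract monocytes and rose by 0.43 to 1.53, and Ccl3 was named after its values were seen. Ccl2 was at 626, 571 and 618 FPKM with IgG and 902, 724 and 847 FPKM upon neutralization, and its neighbours Ccl7 and Ccl12 went from 513 ± 52.4 to 728 ± 96.8 and from 9.72 ± 0.606 to 28.0 ± 3.42 FPKM. Ccl4 rose from 142 ± 9.30 to 216 ± 15.1 FPKM. Ccl5, a T-cell attractant that interferon and NF-κB raise, was at 1.57, 3.71 and 1.55 FPKM with IgG and 0.356, 0.227 and 0.355 FPKM upon neutralization, low throughout, with a fall of 2.80 on the log2 scale. Receptors for chemoattractants were lower in 5 of 15 cases and higher in none (median -0.24; 2 lower without IgG replicate 3), among them Ccr1 (49.7 ± 1.63 to 37.7 ± 3.23 FPKM), Cxcr4 (5.88 ± 0.213 to 3.93 ± 0.694 FPKM, not called without IgG replicate 3) and C3ar1 (194 ± 6.56 to 157 ± 4.81 FPKM). The wider set of NF-κB genes and inflammatory cytokines had 3 of 25 higher and 1 lower (median 0.05; 3 and 3 without anti-ITGA5 replicate 2, and none lower without IgG replicate 1), near the share over all genes in the higher direction. Il1rn, the natural blocker of IL-1, rose from 4.67 ± 0.704 to 8.62 ± 0.489 FPKM, and Nlrp3, the inflammasome sensor, from 23.01 ± 0.711 to 30.7 ± 2.08 FPKM.

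Receptors of innate recognition changed in both directions. Of 23 Toll-like receptor genes and partners, 7 were lower and 3 higher (median -0.06, and -0.12 without anti-ITGA5 replicate 3). Among surface receptors for bacterial products, Tlr2 and its partner Cd14 rose, Tlr2 going from 7.88 ± 0.161 to 10.5 ± 0.421 FPKM and Cd14 from 104 ± 6.24 to 142 ± 4.28 FPKM. Of the 5 receptors for nucleic acids in endosomes, Tlr8, Tlr9 and Tlr13 fell and Tlr3 and Tlr7 were not called. Tlr8 was at 31.9, 29.5 and 34.5 FPKM with IgG and 20.8, 19.4 and 23.1 FPKM upon neutralization, without overlap. Tlr9 went from 1.48 ± 0.140 to 0.914 ± 0.186 FPKM (called only with all 6 libraries or without anti-ITGA5 replicate 2) and Tlr13 from 151 ± 3.396 to 127 ± 6.65 FPKM; Tlr3, Tlr7, Tlr9 and Tlr13 were named after their values were seen. Scavenger and apoptotic cell receptors had 6 of 22 lower and 2 higher (median -0.15; 9 lower without anti-ITGA5 replicate 2), with Mertk and Axl, kinases that recognise dying cells, lower (24.7 ± 1.23 to 17.6 ± 0.199 and 8.10 ± 0.573 to 5.11 ± 0.567 FPKM) and Clec4e, which binds mycobacterial glycolipid, higher (9.87 ± 0.621 to 13.7 ± 1.01 FPKM). Complement components were lower in 4 of 9 cases and higher in none (median -0.15, and -0.08 without anti-ITGA5 replicate 2). Without IgG replicate 2, 2 were lower. Cfp, properdin, fell from 286 ± 6.60 to 212 ± 18.1 FPKM. Among Fc receptors and their signalling genes, 5 of 19 were lower and 1 higher (median -0.10). Without anti-ITGA5 replicate 2, 7 were lower (median -0.055), and without IgG replicate 1, 3 were. Fcgr3 fell from 234 ± 6.54 to 182 ± 15.3 FPKM. Costimulatory and checkpoint molecules had 3 of 15 lower and 1 higher (median -0.02, and 0.02 with total counts). Without anti-ITGA5 replicate 2, 5 were lower and 2 higher (median -0.13). Among the costimulatory and checkpoint molecules, Vsir fell from 59.3 ± 0.138 to 37.9 ± 0.837 FPKM. Havcr2, which encodes TIM-3, rose from 22.5 ± 1.01 to 34.0 ± 2.56 FPKM. Of 19 enzymes of eicosanoids and platelet-activating factor, 3 were lower and 1 higher (median -0.16; 6 lower without anti-ITGA5 replicate 3). Pla2g7, which breaks down platelet-activating factor, was at 12.3, 13.8 and 18.5 FPKM with IgG and 4.73, 3.67 and 6.38 FPKM upon neutralization, 1 of the 12 largest falls.

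Matrix-degrading enzymes were lower in 6 of 20 cases and higher in 3 (median -0.06). Mmp9, gelatinase B, was at 7.34, 7.76 and 8.25 FPKM with IgG and 2.08, 1.52 and 2.55 FPKM upon neutralization, with all anti-ITGA5 libraries far below the IgG libraries (log2 change -1.90, SE 0.139, adjusted p = 1.53e-05). Mmp8, the neutrophil collagenase, fell from 21.5 ± 3.13 to 11.4 ± 0.673 FPKM. It is also a neutrophil marker, and the summed level of that marker list fell with it; of that list's 12 genes 7 or 8 had a count in each library, only Mmp8 and S100a8 passed the filter, and Ly6g, Retnlg and Cxcr2 were at 0 throughout. Mmp12, the macrophage elastase, and Mmp27 rose, Mmp12 from 45.9, 48.7 and 49.0 to 71.2, 70.2 and 68.2 FPKM and Mmp27 from 4.41 ± 0.662 to 7.92 ± 0.536 FPKM. Plau, urokinase, rose from 708 ± 45.4 to 871 ± 66.3 FPKM. Of 24 matrix and matricellular genes, 7 were lower and 2 higher (median -0.17, and -0.096 without anti-ITGA5 replicate 2). In that list 4 were lower without IgG replicate 3, and none was higher without IgG replicate 1. Gpnmb, a transmembrane glycoprotein of lysosome-rich macrophages, fell from 1728 ± 35.3 to 1422 ± 38.6 FPKM, and Sdc3, syndecan-3, from 189 ± 7.17 to 133 ± 8.75 FPKM. Fn1, the ligand of the blocked receptor, was low and at 1.54, 1.64 and 2.43 FPKM with IgG and 3.01, 2.29 and 3.46 FPKM upon neutralization, with overlapping groups. Its log2 change of 0.66 was called (adjusted p = 0.0230) but not with DESeq2 or without IgG replicate 1 or 2 or anti-ITGA5 replicate 1 or 3, and it was chosen after its values were seen. Of 14 tested secreted angiogenic factors other than those the study names for these libraries, 2 were lower and 1 higher (median -0.11). Over all genes, 9.61% were lower and 10.8% higher. Thbs1, thrombospondin-1, which restrains angiogenesis, fell from 29.3 ± 6.51 to 18.7 ± 3.97 FPKM (not called with DESeq2 or without IgG replicate 3 or anti-ITGA5 replicate 1), Sema4d, a semaphorin, fell from 53.3 ± 1.496 to 42.6 ± 3.55 FPKM, and Ang, angiogenin, rose from 4.22 ± 0.216 to 7.26 ± 0.583 FPKM.

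Of 42 focal adhesion and actin genes, 6 were lower and 8 higher (3 and 5 without IgG replicate 1), where 9.61% and 10.8% of all genes were, and the sign of the median (0.04) depended on the processing. By role, the 22 adhesion kinases and adaptors had 3 lower and none higher, among them Pxn, paxillin (19.0 ± 0.750 to 15.4 ± 0.981 FPKM), whereas 20 actin proteins had 3 lower and 8 higher. Actb was at 2087, 1916 and 2244 FPKM with IgG and 2385, 2965 and 2379 FPKM upon neutralization, and Actg1 went from 354 ± 44.4 to 504 ± 86.1 FPKM. Neither was called without IgG replicate 2, nor was Actb without IgG replicate 1. Actn1, α-actinin, fell from 32.5 ± 1.27 to 26.6 ± 1.51 FPKM. Early targets of serum and MAPK signals had 4 of 24 lower and none higher (median -0.01; 2 lower without IgG replicate 3, 5 lower and 2 higher without anti-ITGA5 replicate 2, and 3 higher with scaling by total counts), with Dusp6, a phosphatase that ERK induces against itself, at 77.3, 72.2 and 72.1 FPKM with IgG and 49.7, 45.9 and 52.2 FPKM upon neutralization, and Fos at 13.6 ± 1.91 and 9.01 ± 1.39 FPKM. Of the 31 growth factor and PI3K pathway genes, 7 were lower and none higher (median -0.10), with 13 lower without anti-ITGA5 replicate 2 and 3 lower without IgG replicate 1. Csf3r, the G-CSF receptor and a member of that list, fell from 6.02 ± 0.184 to 3.85 ± 0.133 FPKM. Of 16 targets of serum response factor and YAP, 4 were lower and 1 higher (2 lower without IgG replicate 3). The median was 0.06, and -0.18 without anti-ITGA5 replicate 3. That list shares Fos and Axl with others here. The TGF-β pathway had 6 of 22 lower and none higher (median -0.18; 2 lower without IgG replicate 1), including its receptor Tgfbr2 (26.7 ± 0.426 to 20.01 ± 0.727 FPKM) and the endothelial-type receptor Acvrl1 (9.82 ± 1.02 to 7.32 ± 0.701 FPKM).

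Macrophage identity genes fell in part. Of the 10 defining macrophage markers, 5 were lower and none higher, and of 18 macrophage transcription factors 6 were lower and 1 higher (3 lower without IgG replicate 3). Irf8, of the monocyte and dendritic lineage, went from 30.6 ± 1.85 to 24.1 ± 1.45 FPKM and Mitf, a factor of lysosomal genes and osteoclasts, from 10.6 ± 0.474 to 8.79 ± 0.344 FPKM (not called without anti-ITGA5 replicate 1). Of 12 osteoclast and cell fusion genes 4 were lower and 1 higher (median -0.24; 6 lower without anti-ITGA5 replicate 2), the latter Trem2 (95.5 ± 5.60 to 126 ± 6.96 FPKM), a lipid receptor of macrophages and microglia.

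Over all 805 genes annotated as transcription factors, 95 were lower (11.8%) and 33 higher (4.10%), with a median of -0.07, against 9.47% lower and 11.3% higher among all other genes. Without anti-ITGA5 replicate 2 the counts were 170 and 42. The higher ones included regulators of the mitotic genes above: Foxm1 was at 7.57, 9.13 and 6.63 FPKM with IgG and 16.8, 17.7 and 15.7 FPKM upon neutralization, Mybl2, which encodes B-MYB, went from 7.22 ± 0.273 to 10.2 ± 0.397 FPKM, and all 3 chains of the CCAAT-binding factor NF-Y were called, Nfyb (0.42) and Nfyc (0.24) higher and Nfya (-0.26) lower. Mxd3, a partner of MAX that is itself switched on in S phase, had the largest rise of the 33 (1.04 ± 0.130 to 3.52 ± 0.363 FPKM). The lower ones included Hbp1, a repressor of cell cycle genes (7.34 ± 0.177 to 5.04 ± 0.117 FPKM), the FOXO factors Foxo1 (-0.32) and Foxo3 (-0.29), Kdm5b, a histone H3 lysine 4 demethylase (1.66 ± 0.0512 to 0.879 ± 0.0821 FPKM), and Klf2 (22.3 ± 4.89 to 15.2 ± 1.75 FPKM, not called without IgG replicate 1, IgG replicate 3 or anti-ITGA5 replicate 1). The transcription factors in this paragraph were named after their values were seen, except Foxo3.

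The effect of the antibody was tested for a difference by coating in 1 fit of all 12 libraries. Of 13611 genes, 3 (0.0220%) differed at an adjusted p of 0.05 or less, and leaving out 1 of the 12 libraries gave 1 to 6. Lpl, the lipoprotein lipase (chromosome 8, 68880491 to 68907448, plus strand), was at 84.1, 86.3 and 84.2 FPKM with IgG and 97.6, 95.9 and 99.3 FPKM upon neutralization on uncoated dishes, with all 3 above IgG (log2 change 0.21, adjusted p = 0.0110, not called without IgG replicate 1 or 3). On fibronectin it was at 133, 141 and 142 FPKM with IgG and at 96.3, 101 and 110 FPKM with anti-ITGA5, with all 3 below IgG. The difference of the log2 effects, uncoated minus fibronectin, was 0.65 (SE 0.0699, adjusted p = 0.00157). Mmp12 (chromosome 9, 7344381 to 7369499, plus strand) rose on uncoated dishes and on fibronectin stood at 69.2, 73.5 and 75.6 FPKM with IgG and 64.2, 75.3 and 65.3 FPKM with anti-ITGA5, with overlapping groups; the difference of its log2 effects was 0.65 (SE 0.0835, adjusted p = 0.00767). Gm18194, a transcribed processed pseudogene (chromosome 7, 12795723 to 12799164, minus strand), went from 8, 5 and 11 counts with IgG to 97, 200 and 324 counts with anti-ITGA5 on uncoated dishes and from 36, 11 and 44 to 3, 11 and 17 counts on fibronectin (difference 6.15, SE 0.870, adjusted p = 0.0157). Its adjusted p passed 0.05 when any of several single libraries was left out, up to 0.137 without IgG fibronectin replicate 3. For Plk1, Irf7 and Slc7a5 the difference by coating was -0.09 (SE 0.242), -1.32 (SE 0.668) and 0.09 (SE 0.123), none of them called, which does not show that the effects were alike.

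**Figure D5:**
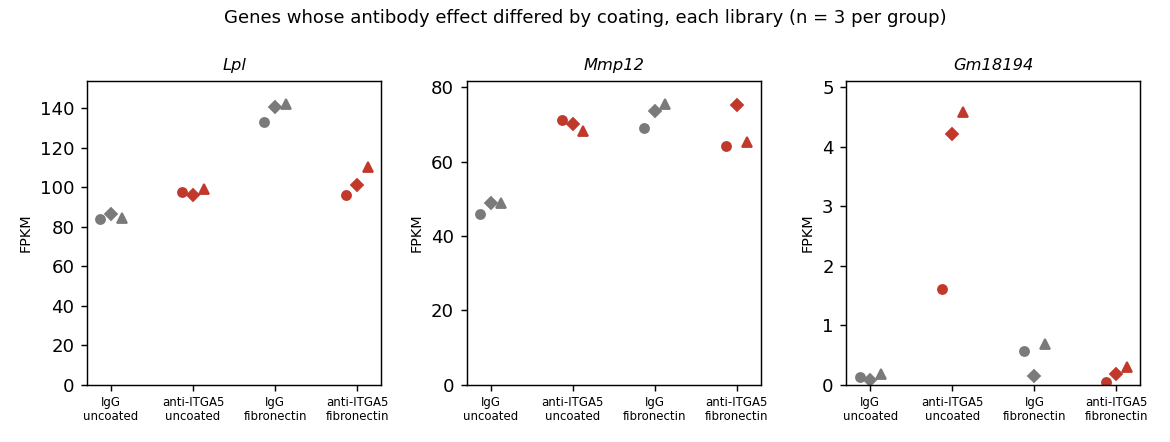
FPKM of Lpl, Mmp12 and Gm18194 in each of the 12 libraries, IgG in grey and anti-ITGA5 in red, on uncoated and fibronectin-coated dishes (n = 3 per group, symbols for replicates 1 to 3). On uncoated dishes all 3 anti-ITGA5 libraries lie above the IgG libraries for each gene, whereas on fibronectin Lpl lies at 96.3 to 110 FPKM below IgG at 133 to 142 FPKM.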

How the data were processed

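RNA was sequenced as paired-end reads from oligo(dT)-selected libraries. The authors deposited a table of read counts per gene, made per the labels' processing notes with TopHat2 2.0.9 on the mouse genome GRCm38.p6 (mm10) and HTSeq 0.6.1, and a table of FPKM per gene, computed by the authors. In the deposited tables each FPKM is the count divided by gene length and by a factor common to the library. Cufflinks 2.1.1 is named for assembly. The annotation release and the strand setting are not given in the sources used here, so reads of overlapping or antisense genes cannot be told apart. Every count column matched a labelled sample, and 0 other value columns were present. Library totals ran from 12954342 to 20269249 counts in the 6 libraries used.

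Genes with at least 10 counts in 3 or more of the 6 libraries were tested in R 4.3.3 with edgeR 4.0.16 (TMM scaling, quasi-likelihood test, Benjamini-Hochberg adjustment over all tested genes). A call is an adjusted p of 0.05 or less. Standard errors are the size of the log2 change divided by the square root of F. The study used DESeq2, which was run here as an alternative (version 1.42.0), as was limma 3.58.1. The common biological coefficient of variation was 0.0812, which sets the precision together with n = 3 per group. The difference by coating was the interaction of antibody and coating over all 12 libraries. The scripts were tested on simulated data, where the changed genes that edgeR missed at a log2 size of 1 all had low counts.

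Gene lists, members and cell type markers were chosen with earlier results of these data known, so lists are described by counts and medians with no test of their own. Genes were named by rule: Itga5 and Itgb1; the 12 largest rises and 12 largest falls among called genes that had 10 or more counts in each of the 6 libraries and groups without overlap; the 8 called genes with the largest rise and the 8 with the largest fall in mean FPKM; up to 4 called members with the smallest adjusted p in each list (the gene of highest mean FPKM where none was called); and the 3 genes with the smallest adjusted p for coating. Names of the form Gm plus digits or ending in Rik were left out of the largest changes, and genes that the study names for these libraries out of the list examples. Some genes that the rule selects are not reported here. Any other gene is said to have been named after its values were seen. Alternatives were other tests, scalings, filters, units and thresholds, a replicate block, thinning to the smallest library and leaving out each library. Promoter letters were searched in RefSeq's 250 bases before each start on GRCm38.p6, matched by symbol.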

Additional observations from a re-analysis of the deposited data

Results flagged for a closer look

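The antibody effect of 3 genes met the test of a difference between uncoated and fibronectin-coated dishes (edgeR, interaction over 12 libraries). For Lpl the adjusted p was 0.00157; the antibody effect was a log2 change of 0.21 on uncoated dishes and -0.44 on fibronectin, and the adjusted p ranged from 1.36e-04 to 0.0167 when 1 library was left out. For Mmp12 the adjusted p was 0.00767; the effect was 0.55 on uncoated dishes and -0.09 on fibronectin, and the call was lost without IgG uncoated replicate 1 (adjusted p = 0.0577) and without IgG fibronectin replicate 3 (0.0509). Mmp12 shares bases with the annotated gene Mmp1b. For Gm18194, a processed pseudogene that shares bases with Zscan18, the adjusted p was 0.0157; the effect was 4.69 on uncoated dishes and -1.45 on fibronectin, from at most 324 counts in a library, and leaving out 1 library gave an adjusted p of 0.00351 to 0.137.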

How the results depend on the processing

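On uncoated dishes, 1251 lower and 1412 higher genes became 2293 and 2436 with voom sample quality weights, 536 and 684 with limma on log2(FPKM + 1) of unfiltered genes, 559 and 785 at an adjusted p of 0.01 or less, and 79 and 167 with a log2 change of at least 1 in size; the cause was not tested beyond the stricter thresholds themselves. Leaving out 1 library gave 666 (without IgG replicate 1) to 1851 (without anti-ITGA5 replicate 2) lower genes and 880 to 1962 higher genes from the same libraries. It also gave 815, 704 and 805 lower genes without IgG replicate 2, IgG replicate 3 and anti-ITGA5 replicate 1, and 924 higher genes without IgG replicate 3. The 3 genes that differed by coating became 65 when every gene with at least 1 count was tested, and 1 (without IgG uncoated replicate 1, or without IgG fibronectin replicate 3) to 6 (without anti-ITGA5 uncoated replicate 3) when 1 library was left out.

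The replicate number as a block gave 1409 lower and 1536 higher genes and 3 that differed by coating. Same-numbered libraries correlated by 0.065, 0.029 and 0.092 in their deviations, and each library correlated best with its own number. The labels do not say whether the numbers pair the libraries, and these small correlations do not settle it.

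The sign of Itgb1 turned to 0.0037 with scaling by total counts, and that of Pttg1 to 0.044 with voom weights, 0.012 with total counts and 0.011 in thinned counts, with a range of -0.093 to 0.020 when 1 library was left out (0.0072 without IgG replicate 3). That of Psph turned when 1 library was left out (range -0.0117 to 0.14). The median log2 fold change of focal adhesion and actin linkers was -0.00579 in thinned counts and -0.0080 to 0.049 when 1 library was left out. Other medians near 0 also turned, to -0.03 for chemokines (without anti-ITGA5 replicate 1), -0.04 for alternative activation (thinned), -0.01 for ribosomal proteins (without anti-ITGA5 replicate 1), -0.18 for serum response factor and YAP targets and -0.02 for class II presentation (both without anti-ITGA5 replicate 3), and 0.03 for early MAPK targets and 0.02 for checkpoint molecules (both with total counts). Of 223 genes selected by the rule or after their values were seen, not all of them reported here, 217 were called. None of the 217 changed direction. DESeq2 lost 7 of the calls, total counts 4, thinning 7, and limma on FPKM 35 to 85. Leaving out 1 library lost 3 (without anti-ITGA5 replicate 2) to 39. Depth limits genes of low count, and with n = 3 per group a gene that was not called may still differ.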
